A study of Mus musculus with 6 samples.

Results

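The comparison described here is that of white cells (WAT) on day 4 of differentiation with the same kind of cells on day 0, the undifferentiated state, in RNA sequencing data with 1 library per condition. A gene entered it when its FPKM (fragments mapped to the exons of a gene, scaled for exon length and for the size of the library) was at least 1 in at least 1 of these 2 libraries, and 13011 of the 34465 gene symbols in the deposited table did so. The study followed brown (BAT) and white fat cell precursors of mice through differentiation in culture, with RNA sequenced on days 0, 4 and 6, so that the whole series holds 6 libraries. In its methods, preadipocytes came from the stromal vascular fraction of the inguinal fat depot for WAT and of the interscapular depot for BAT, from 8 BL6 mice killed at 3 weeks of age, and no genetic change is described. Both WAT libraries derive from these cultured cells. The day 4 cells had received dexamethasone, insulin, 3-isobutyl-1-methylxanthine (IBMX) and rosiglitazone for 48 h and maintenance medium from then on, whereas the day 0 cells had received none of these. The cells are therefore a culture model of primary precursors and not tissue, and every comparison of day 4 with day 0 is also one of cells exposed to the cocktail with cells not exposed to it. The white columns of the deposited table are labelled SUB, which was taken to stand for the inguinal cells.

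White fat cells store triglyceride in a droplet and release it on demand as fatty acids and glycerol. Precursors become fat cells when hormonal signals switch on the transcription factors C/EBPα and PPARγ, which act on the genes of lipid storage and of insulin response, while the cells leave the cell cycle, round up and take down their actin stress fibres and fibroblast matrix. Of the agents used here, dexamethasone activates the glucocorticoid receptor, IBMX raises cAMP, insulin signals through its own receptor, and rosiglitazone is a ligand of PPARγ.

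Expression on day 4 was compared with day 0 as the difference of log2(FPKM + 1), day 4 minus day 0, and a gene was called higher or lower at a difference of at least 1 in size, a 2-fold change on that scale. The added 1 understates the change of genes with low FPKM. With 1 library a side there was no replicate check, and no test between the days was possible. Of the 13011 genes, 2165 (16.6%) were higher and 2739 (21.1%) lower on day 4, and the median difference over all of them was -0.13. Among the 11726 protein-coding genes, 1856 were higher and 2366 lower. Differences of at least 16-fold were found for 163 genes that were higher and 90 that were lower.

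The day 4 and day 0 libraries differed in ways that touch all genes. Their approximate depth, read from the steps between low FPKM values, was 21.9 M fragments on day 4 and 9.3 M fragments on day 0, the highest and the lowest of the 6 libraries. As a share of the summed FPKM, cytosolic ribosomal protein genes made up 13.8% on day 4 and 28.4% on day 0, and genes of the mitochondrial genome 11.4% on day 4 and 4.71% on day 0. MicroRNA loci, all of those above 0 being shorter than 150 bases, made up 0.268% on day 4 and 8.32% on day 0, and other small RNA loci (snRNA, snoRNA and misc_RNA) 4.00% on day 4 and 0.339% on day 0. FPKM of loci shorter than a sequenced fragment cannot be read as levels, and such loci enter only the counts and shares over all entries. A group of loci named Gm10800 and the like took 0.674% on day 4 and 2.18% on day 0 in WAT, against 1.04% on day 4 and 0.000433% on day 0 in BAT. The remaining protein-coding genes held 66.6% on day 4 and 52.0% on day 0. Scaling the 2 libraries to each other by the median ratio over genes moved the median difference by 0.13, to 0.00. The share of genes called lower grew with the level on day 0: of 148 genes with at least 1000 FPKM on day 0, 95 were lower and 10 higher on day 4, with a median of -1.17, whereas of the 6281 genes between 1 and 10 FPKM, 1109 were lower and 898 higher, with a median of -0.09. Over protein-coding genes alone, 79 of 131 with at least 1000 FPKM on day 0 were lower and 10 higher, against 919 lower and 828 higher of 5630 between 1 and 10 FPKM. These bands were set by the day 0 value, which is also 1 side of the difference. Genes picked as high on day 0 therefore lean lower by that choice, and the added 1 shrinks differences in the lowest band. How much of any difference below comes from these properties of the libraries was not tested.

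**Figure D1:**
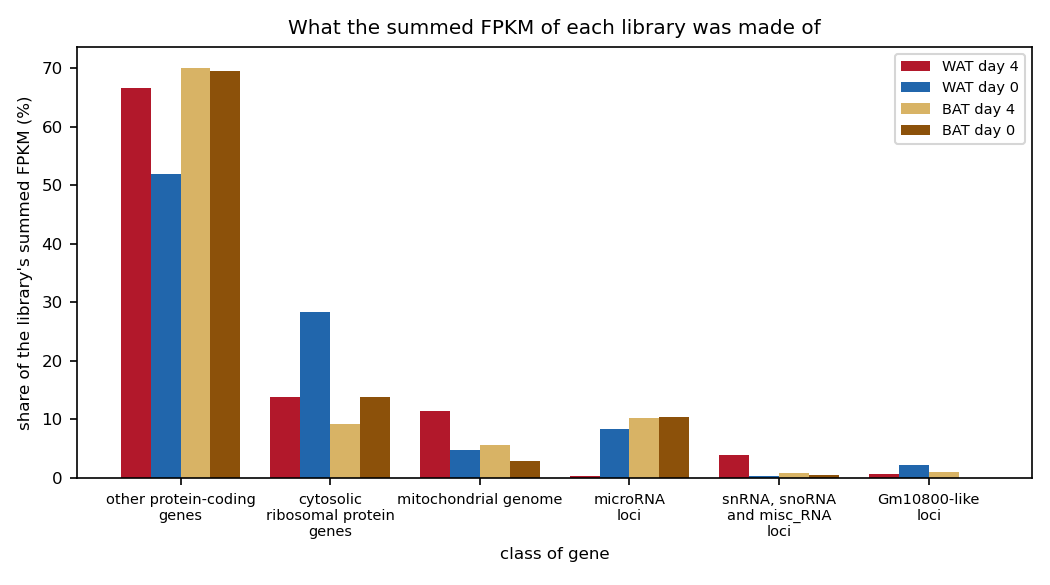
Share of the summed FPKM of each library (percent, vertical axis) taken by classes of genes, for each class with a bar for each of the WAT and BAT libraries of days 4 and 0. Ribosomal protein genes took 13.8% on day 4 and 28.4% on day 0 in WAT, and 9.16% on day 4 and 13.8% on day 0 in BAT.

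**Figure D2:**
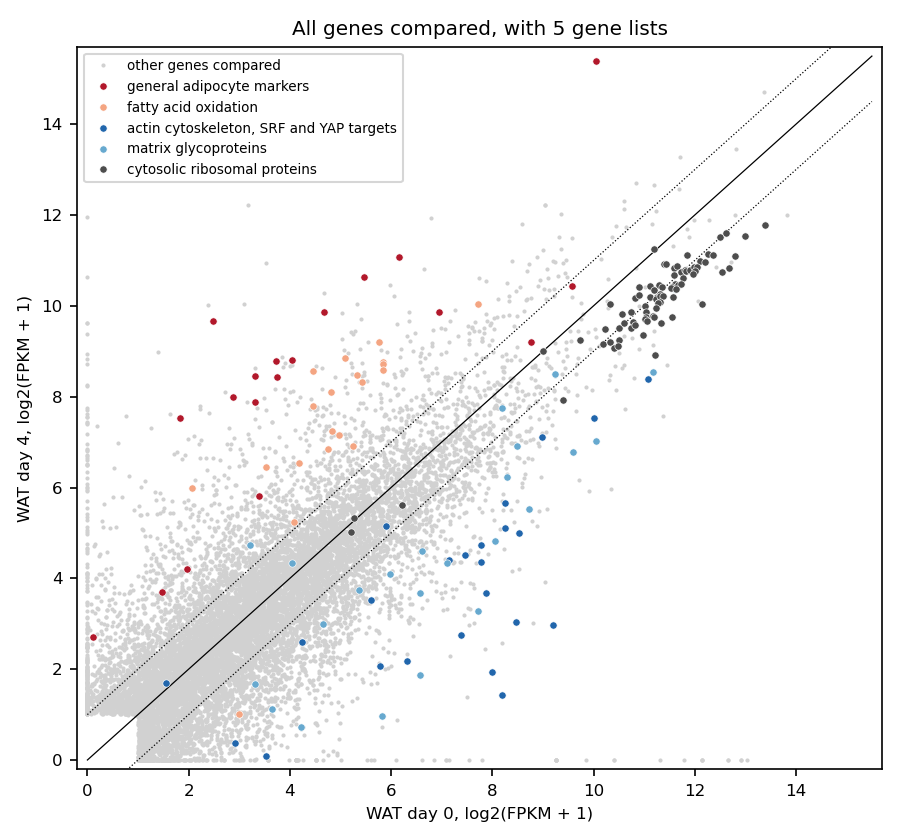
log2(FPKM + 1) in WAT on day 4 (vertical axis) and on day 0 (horizontal axis) for the 13011 genes compared, 1 point a gene, with the members of 5 gene lists coloured, a solid line at equal values and dotted lines at 2-fold. General adipocyte markers mostly lie above the lines, with a median difference of 4.76, and actin cytoskeleton genes mostly below them, with a median of -3.10.

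Among the 10 highest genes of the day 4 library, Fabp4, the fatty acid binding protein of fat cells, stood first with 42705 FPKM on day 4 and 1052 FPKM on day 0. It was followed by mt-Co2, a mitochondrially encoded subunit of cytochrome c oxidase, with 26664 FPKM on day 4 and 10618 FPKM on day 0. A further 6 of the 10 were other genes of the mitochondrial genome. On day 0 the list was led by Gm10800, at 4108 FPKM on day 4 and 14499 FPKM on day 0, and by Rplp1, a protein of the large ribosomal subunit, at 3494 FPKM on day 4 and 10666 FPKM on day 0. It also held Rpl41 and Rpl13a, mt-Co2 and mt-Co3, 3 microRNA loci and Tpt1, which encodes the translationally controlled tumour protein (4068 FPKM on day 4 and 7146 on day 0). The top 10 entries together, small RNA loci included, took 15.9% of the summed FPKM on day 4 and 10.6% on day 0.

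The largest rises were in secreted and lipid-handling products of fat cells. Rbp4, the retinol carrier of plasma that fat tissue also secretes, had 1039.6 FPKM on day 4 and 4.21 FPKM on day 0, a difference of 7.64. Thrsp, a nuclear protein tied to lipogenesis, had 1972 FPKM on day 4 and 10.5 FPKM on day 0 (difference 7.42), and Cidec, which lets lipid droplets fuse and grow, had 806 FPKM on day 4 and 4.58 FPKM on day 0 (difference 7.18). All 3 were thus low but detected before induction and among abundant transcripts on day 4. Cox7a1, the heart and muscle isoform of a cytochrome c oxidase subunit that brown fat also expresses, had 1054 FPKM on day 4 and 7.59 FPKM on day 0 (difference 6.94). Elovl3, an elongase of very long chain fatty acids, had 189 FPKM on day 4 and 0.705 FPKM on day 0 (difference 6.80). On day 6 Elovl3 was at 16.6 FPKM while Cox7a1 was at 1089 FPKM, so that Elovl3 was below its day 4 level and Cox7a1 was not. Metabolic enzymes followed, with Pcx, pyruvate carboxylase, at 395 FPKM on day 4 and 8.98 on day 0, and Cdo1, cysteine dioxygenase, at 1248 FPKM on day 4 and 24.6 on day 0. The insulin-responsive glucose transporter Slc2a4 (GLUT4) had 185 FPKM on day 4 and 2.57 FPKM on day 0 (difference 5.70). O3far1, the receptor of long chain fatty acids also called GPR120 or Ffar4, had 84.6 FPKM on day 4 and 0.449 FPKM on day 0 (difference 5.88).

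The other genes among the 15 largest rises were the sulfotransferase Sult1a1, the calcium-binding protein Cib2, the aldehyde dehydrogenase Aldh1a7, the glycogen-targeting phosphatase subunit Ppp1r3c, the mitochondrial carrier Slc25a34 and Fabp4, with differences between 5.30 and 6.37. Some of the rises rest on few fragments on day 0. Slc25a34, for instance, had 48.6 FPKM on day 4 and 0.263 FPKM on day 0, corresponding to about 2630 and 6 fragments on those days, and the 95% interval of its ratio (exact Clopper-Pearson, counting error alone) was 85.4 to 508. For Elovl3 that interval was 150.4 to 539.7. All 15 rises were at least 2-fold in BAT as well, where day 4 minus day 0 lay between 4.96 and 9.29. These BAT libraries are separate from those of WAT.

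**Figure D3:**
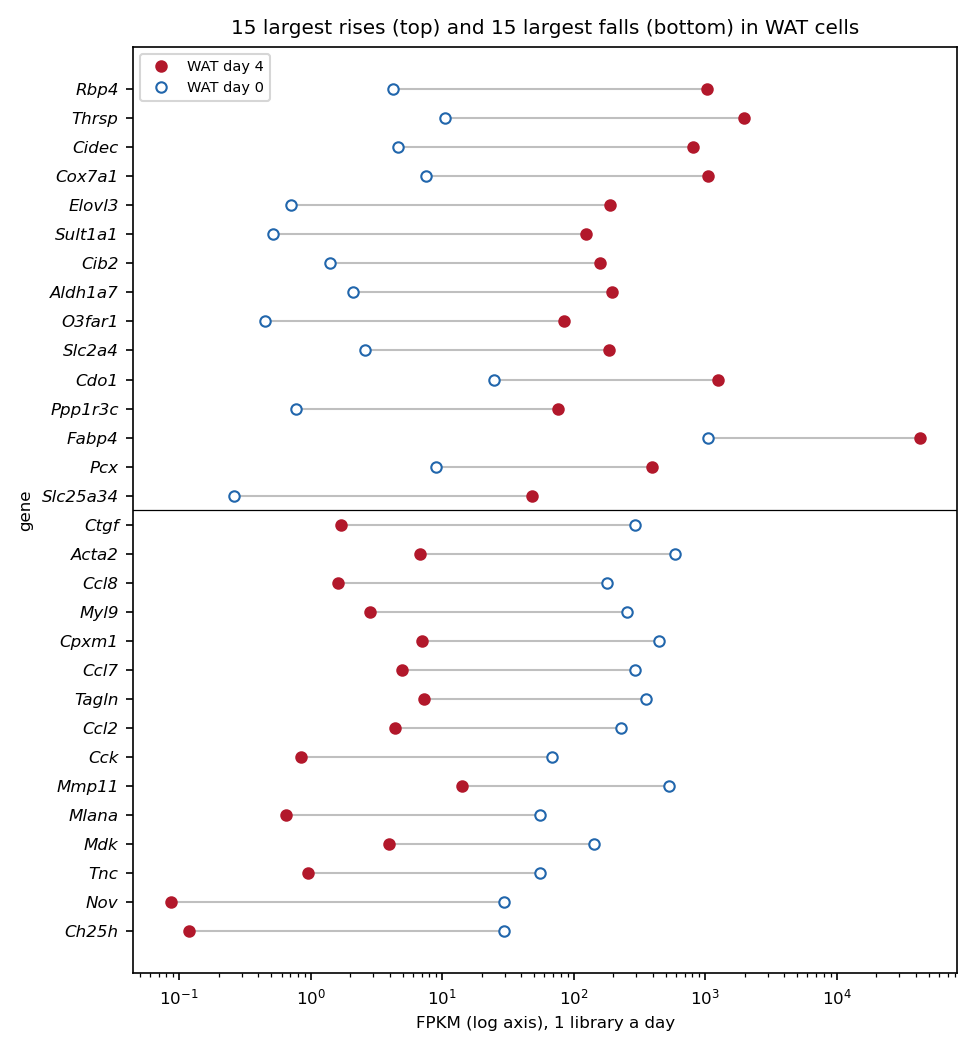
FPKM on a log10 axis (horizontal) of the 15 protein-coding genes that rose most and the 15 that fell most in WAT (rows), with a point for the day 4 and a point for the day 0 library joined by a line. Rbp4 leads the rises at 1039.6 FPKM on day 4 and 4.21 on day 0, and Ctgf leads the falls at 1.71 FPKM on day 4 and 292 on day 0.

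The largest falls were in contractile, matrix and chemokine genes of fibroblasts. Ctgf, a matricellular growth factor also called Ccn2, had 1.71 FPKM on day 4 and 292 FPKM on day 0, a difference of -6.76. Acta2, smooth muscle alpha-actin, had 6.82 FPKM on day 4 and 589 FPKM on day 0 (difference -6.24), and Myl9, a regulatory light chain of myosin, had 2.82 FPKM on day 4 and 255 FPKM on day 0 (difference -6.07). Tagln, an actin-binding protein, had 7.22 FPKM on day 4 and 353 FPKM on day 0 (difference -5.43). These 4 genes are usually counted among those that mark stress fibres and tension. The monocyte-attracting chemokines Ccl8, Ccl7 and Ccl2 followed, with 1.61 FPKM on day 4 and 180.2 FPKM on day 0 for Ccl8, 4.95 FPKM on day 4 and 291 FPKM on day 0 for Ccl7 and 4.41 FPKM on day 4 and 230.4 FPKM on day 0 for Ccl2. Mmp11, a matrix metalloproteinase first known as stromelysin-3, had 14.1 FPKM on day 4 and 528 FPKM on day 0 (difference -5.13), and Cpxm1, a carboxypeptidase-like protein, had 7.06 FPKM on day 4 and 447 FPKM on day 0 (difference -5.80). Tnc, the matrix protein tenascin C, had 0.959 FPKM on day 4 and 55.1 FPKM on day 0 (difference -4.84).

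The other falls among the 15 largest were the peptide hormone gene Cck, the melanosomal protein gene Mlana, the heparin-binding growth factor Mdk, the matricellular protein Nov (Ccn3) and the cholesterol 25-hydroxylase Ch25h. Their differences lay between -5.23 and -4.77. Ch25h had 0.120 FPKM on day 4 and 29.5 FPKM on day 0, about 3 and 316 fragments, a ratio of day 4 to day 0 of 0.00406 with a 95% interval for counting error of 0.000827 to 0.0119. All 15 falls were also at least 2-fold in BAT, at -5.73 to -3.50. In mm9, the build of the files, Ctgf lies on chromosome 10, at 24315248 to 24318489, Acta2 on chromosome 19, at 34315580 to 34329826, Rbp4 also on chromosome 19, at 38191110 to 38199811, and Fabp4 on chromosome 3, at 10204347 to 10208576. Each value is a total over the exons of the gene.

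Genes that define the fat cell were higher on day 4, which matches the labels of the 2 libraries. Of 20 general adipocyte markers, 19 passed the filter, 17 were higher and 0 lower, with a median difference of 4.76 where the median of all genes was -0.13. Adipoq, the hormone adiponectin, had 934 FPKM on day 4 and 122 FPKM on day 0 (difference 2.92). Plin1, the perilipin that coats the storage droplet, had 236 FPKM on day 4 and 8.91 FPKM on day 0 (difference 4.58). The 2 markers between the thresholds were already high before induction: Lpl, lipoprotein lipase, had 1383 FPKM on day 4 and 765 FPKM on day 0 (difference 0.85), and Cfd, adipsin, had 592 FPKM on day 4 and 431 FPKM on day 0 (difference 0.46). The 1 marker below the filter was Lep, leptin, at 0.285 FPKM on day 4 and 0.0354 FPKM on day 0. In a bulk culture, more fat cells and more RNA of a gene per fat cell cannot be told apart, and neither can fewer cells of a type and less RNA per cell.

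The lists of late and early factors of adipogenesis differed from day 0 to day 4, between which no library was taken. Of 14 late factors, all of which passed, 12 were higher and 0 lower, with a median of 2.58. Pparg, the receptor that rosiglitazone binds, had 109.7 FPKM on day 4 and 12.0 FPKM on day 0 (difference 3.09), and Cebpa had 292 FPKM on day 4 and 41.8 FPKM on day 0 (difference 2.77). The lipogenic factors Srebf1 (155 FPKM on day 4 and 25.2 on day 0) and Mlxipl, also called ChREBP (36.4 FPKM on day 4 and 2.57 on day 0), were higher too. Lpin1, a phosphatidate phosphatase and coactivator, had the largest difference of the list, 4.16. Rxra, the partner of PPARγ, had 14.6 FPKM on day 4 and 17.8 FPKM on day 0 and was not called. Of 15 early factors, 14 passed, 3 were higher and 1 lower, with a median of -0.05. Cebpb had 128 FPKM on day 4 and 131 FPKM on day 0 and Cebpd 60.0 FPKM on day 4 and 42.4 FPKM on day 0, so neither was called between these days. Higher were Fos, a subunit of AP-1 (66.1 FPKM on day 4 and 16.0 on day 0), the transcription factor Stat5a (21.9 FPKM on day 4 and 4.96 on day 0) and the glucocorticoid-responsive Klf9 (15.6 FPKM on day 4 and 5.52 on day 0). The growth arrest gene Gadd45b was lower (15.4 FPKM on day 4 and 41.2 on day 0). Of 21 antiadipogenic factors, 18 passed, 8 were lower and 1 higher, and with median-ratio scaling 4 were lower. Id3, an inhibitor of helix-loop-helix factors, had 75.8 FPKM on day 4 and 269 FPKM on day 0, and Foxo1, a transcription factor that insulin restrains, was the member that was higher (9.37 FPKM on day 4 and 1.64 on day 0).

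Genes of triglyceride synthesis and of the lipid droplet mostly rose. Of 18 genes of triglyceride synthesis, 16 passed, 10 were higher and 1 lower, with a median of 2.23. Agpat2, which makes phosphatidic acid and is mutated in a human lipodystrophy, had 1599 FPKM on day 4 and 43.0 FPKM on day 0 (difference 5.18). Dgat2, which adds the last acyl chain, had 254 FPKM on day 4 and 6.31 FPKM on day 0 (difference 5.12), and Dgat1, the other enzyme of that step, had 313 FPKM on day 4 and 56.0 FPKM on day 0 (difference 2.46). The fatty acid activating enzymes diverged, as Acsl1 had 348 FPKM on day 4 and 8.87 FPKM on day 0 and Acsl5 15.4 FPKM on day 4 and 51.1 FPKM on day 0, a rise and a fall. Of 17 lipid droplet genes, 15 passed, 12 were higher and 0 lower, with a median of 2.65. Plin2, the droplet coat of many cell types, had 964 FPKM on day 4 and 153 FPKM on day 0 (difference 2.65), and Cav1, the main protein of caveolae, had 357 FPKM on day 4 and 43.4 FPKM on day 0 (difference 3.01).

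Genes of lipid release rose beside those of storage. Of 16 genes of lipolysis and its control, 15 passed, 13 were higher and 0 lower, with a median of 3.05. Pnpla2 (ATGL), which starts triglyceride breakdown, had 2173 FPKM on day 4 and 70.0 FPKM on day 0 (difference 4.94), and Lipe, hormone-sensitive lipase, had 343 FPKM on day 4 and 12.4 FPKM on day 0 (difference 4.69). Of their controls, G0s2, an inhibitor of ATGL, had 1403 FPKM on day 4 and 62.4 FPKM on day 0 (difference 4.47). Adrb3, the beta-3 adrenergic receptor of fat cells, had 54.2 FPKM on day 4 and 6.18 FPKM on day 0 (difference 2.94), and Pde3b, the phosphodiesterase through which insulin lowers cAMP, had 44.1 FPKM on day 4 and 0.904 FPKM on day 0 (difference 4.57). Activators and inhibitors of lipolysis were therefore both among the genes that rose.

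Genes of fatty acid synthesis mostly rose. All 20 genes passed, 13 were higher and 2 lower, with a median of 3.01. Scd1, the delta-9 desaturase, had 3915 FPKM on day 4 and 109 FPKM on day 0 (difference 5.15), and Fasn, fatty acid synthase, had 1793 FPKM on day 4 and 98.9 FPKM on day 0 (difference 4.17). Acaca, the cytosolic acetyl-CoA carboxylase that feeds Fasn, had 89.4 FPKM on day 4 and 7.50 FPKM on day 0 (difference 3.41). Acly, which makes cytosolic acetyl-CoA from citrate, was listed at 0 on day 4 and at 47.7 FPKM on day 0. On day 6 it stood at 277 FPKM, and in BAT it was also listed at 0 on day 4 and at 129 FPKM on day 0. An exact 0 in a file of this kind can be a failed estimate, and no fold is given for Acly, which counts among the 2 lower genes. The other lower gene was the elongase Elovl1 (42.0 FPKM on day 4 and 124 on day 0).

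Cholesterol synthesis differed in direction from fatty acid synthesis. Of 24 genes of cholesterol synthesis and uptake, 22 passed, 14 were lower and 2 higher, with a median of -1.12. With median-ratio scaling 10 were lower and 4 higher. Fdps, farnesyl diphosphate synthase, had 130.3 FPKM on day 4 and 428 FPKM on day 0 (difference -1.71). Lss, lanosterol synthase, was one of the genes that were higher, with 58.7 FPKM on day 4 and 7.85 FPKM on day 0 (difference 2.75), and the other was Pmvk, phosphomevalonate kinase (112 FPKM on day 4 and 39.8 on day 0). The factor of this pathway Srebf2 was lower (10.3 FPKM on day 4 and 27.8 on day 0) where Srebf1 was higher. In fatty acid uptake and binding, where 14 of 15 genes passed, 7 were higher and 4 lower. Cd36, a fatty acid translocase, had 440.2 FPKM on day 4 and 12.2 FPKM on day 0 (difference 5.06), and Fabp3, the heart-type fatty acid binding protein, had 0.368 FPKM on day 4 and 30.5 FPKM on day 0 (difference -4.53), opposite to Fabp4 and Fabp5 (3584 FPKM on day 4 and 384 on day 0).

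Most nuclear genes of the respiratory chain rose. Of the 37 complex I subunits, all passed, 32 were higher and 0 lower, with a median of 1.68. Ndufs1, the largest iron-sulfur subunit of the complex, had 94.4 FPKM on day 4 and 13.9 FPKM on day 0 (difference 2.68), and Ndufa2 had 581 FPKM on day 4 and 435 FPKM on day 0 (difference 0.42), the smallest difference of the list. Of 26 genes of cytochrome c and the complexes II, III and IV, 25 passed and all 25 were higher, with a median of 1.93. Cycs, cytochrome c, had 692 FPKM on day 4 and 37.9 FPKM on day 0 (difference 4.15). Of 15 ATP synthase genes, 11 were higher and 0 lower, with a median of 1.30. Of the 13 protein genes of the mitochondrial genome itself, 8 were higher and 0 lower, with a median of 1.48. Most of them were among the abundant transcripts on both days.

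The fuel pathways of the mitochondrion had larger median differences than its respiratory chain. Of 18 TCA cycle genes, 17 were higher and 0 lower, with a median of 2.35. Of 20 genes of fatty acid oxidation, 19 were higher and 1 lower, with a median of 2.89. Acadm, the medium chain acyl-CoA dehydrogenase, had 377 FPKM on day 4 and 21.0 FPKM on day 0 (difference 4.10). The carnitine palmitoyltransferases that admit fatty acids moved apart: Cpt1b, the muscle isoform, had 62.3 FPKM on day 4 and 3.21 FPKM on day 0 (difference 3.91), and Cpt1a, the liver isoform, had 1.01 FPKM on day 4 and 7.01 FPKM on day 0 (difference -2.0), the only fall of the list. Of 19 genes of branched-chain amino acid breakdown, 18 were higher and 1 lower, with a median of 2.39. This list held an isoform pair as well, with the mitochondrial aminotransferase Bcat2 at 374 FPKM on day 4 and 43.3 on day 0, and the cytosolic Bcat1 at 6.60 FPKM on day 4 and 46.6 on day 0. Of 22 peroxisome genes, 21 passed, 18 were higher and 0 lower, with a median of 2.01. Of 21 import and biogenesis genes of mitochondria, 11 were higher and 0 lower, with a median of 1.08. Of 50 mitochondrial ribosomal proteins, 19 were higher and 0 lower, with a median of 0.75.

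**Figure D4:**
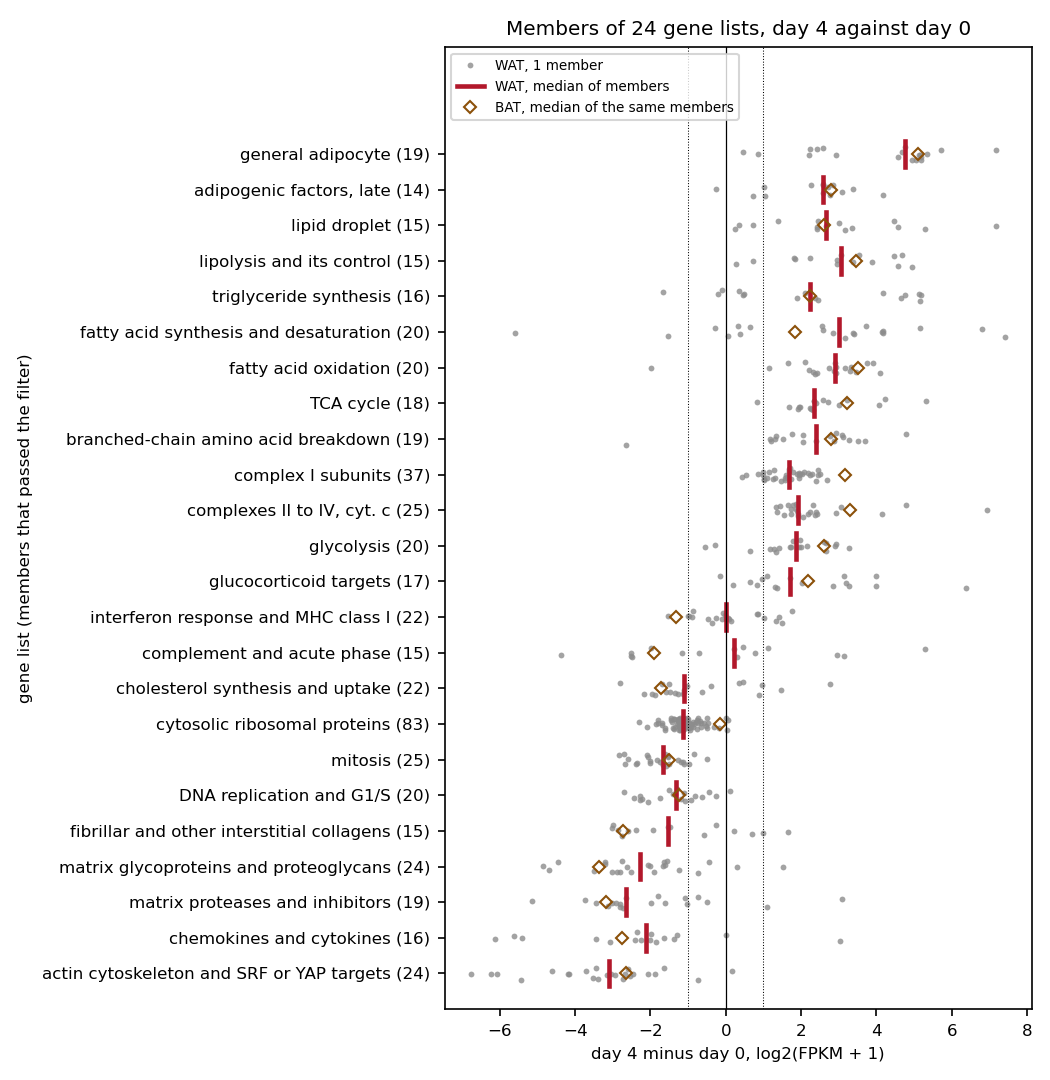
Difference of log2(FPKM + 1), day 4 minus day 0 (horizontal axis), of each gene that passed the filter in the lists shown (rows), with a point for each gene and a bar at the median in WAT, and a diamond at the median of the same genes in BAT. In WAT the medians run from 4.76 for general adipocyte markers to -3.10 for actin cytoskeleton genes.

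Most genes of carbohydrate use rose too. Of 20 genes of glycolysis and lactate transport, 17 were higher and 0 lower, with a median of 1.87. Aldoa, aldolase, had 4135 FPKM on day 4 and 655 FPKM on day 0 (difference 2.66), and Ldha, a lactate dehydrogenase subunit, had 2028 FPKM on day 4 and 334 FPKM on day 0 (difference 2.60). Gapdh, often used to scale such data and also rich in pseudogene copies, had 717 FPKM on day 4 and 1049.5 FPKM on day 0 (difference -0.55) in WAT and a difference of 2.60 in BAT. Of 10 genes of the pentose phosphate pathway and NADPH supply, 8 were higher and 1 lower. Me1, malic enzyme, had 405 FPKM on day 4 and 21.9 FPKM on day 0 (difference 4.15), and Nnt, the mitochondrial transhydrogenase, had 1.10 FPKM on day 4 and 5.29 FPKM on day 0 (difference -1.58). Of 17 genes of insulin action, 16 passed, 7 were higher and 2 lower. The kinases Akt2 (98.4 FPKM on day 4 and 34.5 on day 0) and Akt1 (39.9 FPKM on day 4 and 83.8 on day 0) went opposite ways, Akt2 being the isoform tied to glucose uptake in fat cells. Tbc1d4, the AKT substrate that holds back GLUT4 vesicles, had 14.7 FPKM on day 4 and 1.2 FPKM on day 0 (difference 2.84).

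Targets of the agents in the cocktail were read at day 4, after it had been withdrawn. Of 18 targets of PPARγ, 15 were higher and 0 lower, with a median of 2.67, although several of them also stand among the adipocyte markers. Of 17 glucocorticoid targets, 12 were higher and 0 lower, with a median of 1.72. Fkbp5, a cochaperone of the glucocorticoid receptor, had 143 FPKM on day 4 and 8.05 FPKM on day 0 (difference 3.99) and stood at 36.5 FPKM on day 6. Glul, glutamine synthetase, had 393 FPKM on day 4 and 23.8 FPKM on day 0 (difference 3.99), and Tsc22d3 (GILZ) had 80.7 FPKM on day 4 and 18.9 FPKM on day 0 (difference 2.03). Of 14 cAMP targets, 11 passed, 3 were higher and 2 lower, with a median of 0.40. Rgs2, a regulator of G protein signalling, had 86.1 FPKM on day 4 and 5.95 FPKM on day 0 (difference 3.65), and the orphan receptor Nr4a1 had 5.03 FPKM on day 4 and 35.0 FPKM on day 0 (difference -2.58).

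Secreted factors moved in both directions. Of 18 adipokines and secreted factors, 14 passed, 8 were higher and 3 lower. Retn, resistin, had 931 FPKM on day 4 and 24.7 FPKM on day 0 (difference 5.18), Agt, angiotensinogen, had 461 FPKM on day 4 and 100.5 FPKM on day 0 (difference 2.19), and Nampt had 117 FPKM on day 4 and 10.1 FPKM on day 0 (difference 3.41). Among the lower genes were Ccl2 and Il6, and Il6 was listed at 0 on day 4 and at 4.08 FPKM on day 0. Of 21 major urinary protein (Mup) genes, lipocalins known from liver and urine, 15 passed and all 15 were higher, with a median of 2.83 in WAT and 0.76 in BAT. Their summed FPKM was 382 on day 4 and 35.1 on day 0 in WAT, and 19.1 on day 4 and 3.30 on day 0 in BAT. The genes passed the filter on WAT values, and at the low levels of BAT the added 1 understates their change. The Mup genes are near-identical copies between which reads can be split, so that the 15 calls are not separate observations and the level of each is uncertain.

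Of the lists with at least 5 members that passed, the actin cytoskeleton list had the lowest median, -3.10. It holds structural genes and targets of SRF, the serum response factor, and of YAP, transcriptional regulators that respond to actin polymerisation and cell tension. All 24 members passed, 22 were lower and 0 higher, beside 21.1% of all genes. The non-muscle actins themselves were lower, Actb with 334 FPKM on day 4 and 2149.5 FPKM on day 0 (difference -2.68) and Actg1 with 184 FPKM on day 4 and 1025 FPKM on day 0 (difference -2.47). The tropomyosins Tpm2 (11.8 FPKM on day 4 and 233 on day 0) and Tpm1 (31.0 FPKM on day 4 and 367 on day 0), the calponin Cnn2 (5.75 FPKM on day 4 and 165 on day 0) and the focal adhesion protein Zyx (19.7 FPKM on day 4 and 218 on day 0) were lower as well. Srf itself had 5.07 FPKM on day 4 and 18 FPKM on day 0 (difference -1.65). The members between the thresholds were the alpha-actinin Actn4 (difference -0.74) and Vcl, vinculin, with 2.25 FPKM on day 4 and 1.92 FPKM on day 0. Smooth muscle markers share Acta2, Tagln and Cnn1 with this list. Of 10 mural and smooth muscle markers, 9 passed, 4 were lower and 0 higher, with a summed level of 30.0 FPKM on day 4 and 968 FPKM on day 0. The markers outside the contractile set had values such as 1.76 FPKM on day 4 and 1.54 on day 0 for Cspg4 and 8.89 FPKM on day 4 and 8.48 on day 0 for Mcam. Their part in the fall of actin genes was not tested.

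The sequences upstream of these genes are shown because SRF is known to bind the CArG box, 2 cytosines, 6 bases of A or T and 2 guanines, and the members moved together. Promoters came from RefSeq, build GRCm38.p6, a different build from that of the expression files, and 20 of the 24 symbols had one. In the 250 bases before the start of transcription, 6 of these 20 promoters (30.0%) held a CArG box, against 1.40% of 27025 promoters in the table. Vcl, one of these 6, was not lower. Both strands were searched (the box reads as a CArG box on either strand), capitals mark the box, and each sequence is written 5′ to 3′ on the strand of the gene. A match is a description of these letters and not evidence that the site is used.
Myl9 (chr2:156775293-156775322, plus strand): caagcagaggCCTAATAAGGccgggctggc
Cnn2 (chr10:79988534-79988563, plus strand): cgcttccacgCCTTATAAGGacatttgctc
Actg1 (chr11:120348566-120348595, minus strand): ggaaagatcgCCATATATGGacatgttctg
Lima1 (chr15:99820177-99820206, minus strand): ctcactttgtCCTTATAAGGctatcctgtt
Srf (chr17:46556205-46556254, minus strand): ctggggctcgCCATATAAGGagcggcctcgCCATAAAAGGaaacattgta
Vcl (chr14:20929161-20929190, plus strand): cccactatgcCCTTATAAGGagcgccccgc
The Srf promoter held 2 such boxes. The letters GGAATG, the core of the TEAD site through which YAP acts, were found on either strand in 9 of the 20 promoters (45%), against 12.6% of all promoters, and their first letters can be the last of a CArG box. Because the list was compiled partly as SRF and YAP targets, that choice alone can raise both shares. Of protein-coding genes with a promoter, a CArG box was found in 1.57% of those lower, 1.26% of those higher and 1.13% of all compared.

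Interstitial collagen genes were mostly lower, and basement membrane genes were called at shares near those of all genes. Of 15 interstitial collagen genes, 9 were lower and 1 higher, with a median of -1.53. Col1a1, a chain of type I collagen, had 498 FPKM on day 4 and 1444 FPKM on day 0 (difference -1.53) and Col1a2 394 FPKM on day 4 and 1501 FPKM on day 0 (difference -1.93). Col3a1, of type III collagen, had 587 FPKM on day 4 and 698 FPKM on day 0 (difference -0.25) in WAT, where BAT had a difference of -3.44. The 3 chains of type VI collagen in the list were between the thresholds on the upper side, with differences of 0.22 for Col6a3, 0.71 for Col6a1 and 0.97 for Col6a2. The member that was higher was Col5a3, a chain of type V collagen (96.7 FPKM on day 4 and 30.2 on day 0). Of 17 basement membrane genes, 15 passed, 2 were higher and 3 lower, with a median of -0.03. Over all genes 16.6% were higher and 21.1% lower. Col4a1, of type IV collagen, had 279 FPKM on day 4 and 207 FPKM on day 0, and Col15a1, a collagen of the basement membrane zone, had 173 FPKM on day 4 and 42.3 FPKM on day 0 (difference 2.01).

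Most members of the other matrix lists were lower. Of 24 matrix glycoproteins and proteoglycans, all passed, 20 were lower and 1 higher, with a median of -2.29. Fbln2, fibulin-2, had 129 FPKM on day 4 and 1060.1 FPKM on day 0 (difference -3.03), Thbs1, thrombospondin-1, had 8.66 FPKM on day 4 and 209 FPKM on day 0 (difference -4.44), and Fn1, fibronectin, had 119.5 FPKM on day 4 and 357 FPKM on day 0 (difference -1.57). Sparc, a collagen-binding glycoprotein, was lower and still abundant, with 1315 FPKM on day 4 and 3133 FPKM on day 0 (difference -1.25). Of 16 genes of collagen processing and crosslinking, 11 were lower and 1 higher, with a median of -1.49. Bmp1, which cleaves procollagen, had 22.2 FPKM on day 4 and 240.4 FPKM on day 0 (difference -3.38), and Plod1, a lysyl hydroxylase, was the gene that was higher (158 FPKM on day 4 and 58.8 on day 0). Of 20 matrix proteases and their inhibitors, 19 passed, 15 were lower and 2 higher, with a median of -2.64. The inhibitors Timp1 (34.7 FPKM on day 4 and 473 on day 0) and Timp2 (74.0 FPKM on day 4 and 495 on day 0) were lower, and Timp4 was higher (10.5 FPKM on day 4 and 0.353 on day 0). Of 14 integrins, 10 passed, 6 were lower and 2 higher. Itgav, the subunit of the vitronectin receptor, had 16.9 FPKM on day 4 and 334 FPKM on day 0 (difference -4.23), and the laminin-binding Itga7 had 23.8 FPKM on day 4 and 2.19 FPKM on day 0 (difference 2.96).

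Cell cycle genes were lower on day 4. Of 25 mitosis genes, all passed, 22 were lower and 0 higher, with a median of -1.68. Cdk1, the mitotic kinase, had 12.9 FPKM on day 4 and 45.7 FPKM on day 0 (difference -1.75), Birc5, survivin, had 6.28 FPKM on day 4 and 50.8 FPKM on day 0 (difference -2.83), and Mki67, the proliferation antigen Ki-67, had 0.703 FPKM on day 4 and 7.69 FPKM on day 0 (difference -2.35). Of 22 genes of DNA replication and the G1/S step, 20 passed, 14 were lower and 0 higher, with a median of -1.31. Mcm5, of the replicative helicase, had 0.786 FPKM on day 4 and 10.7 FPKM on day 0 (difference -2.71), and Pcna, the sliding clamp, had 27.3 FPKM on day 4 and 74.4 FPKM on day 0 (difference -1.41). Of 14 genes of DNA methylation, 12 passed, 4 were lower and 0 higher. Uhrf1 (1.43 FPKM on day 4 and 10.8 on day 0) and Dnmt1 (2.52 FPKM on day 4 and 7.66 on day 0), which maintain DNA methylation at replication, were lower with them. The de novo methyltransferase Dnmt3a had 5.25 FPKM on day 4 and 5.96 FPKM on day 0 and was not called. Of 15 cell cycle inhibitors and D cyclins with their partners, 14 passed, 4 were higher and 2 lower. The inhibitors Cdkn1a, or p21 (201 FPKM on day 4 and 70.4 on day 0), and Cdkn2c, or p18 (70.7 FPKM on day 4 and 13.1 on day 0), were higher, and the cyclin Ccnd1 was lower (1.73 FPKM on day 4 and 14.6 on day 0).

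Promoters of mitosis genes are shown for the letters of the CCAAT box, bound by NF-Y, and of TTTGAA, part of the CHR element through which the DREAM complex acts in cell cycle genes. Of the 25 symbols 22 had a promoter in the same RefSeq table. In the same 250 bases and on either strand, CCAAT was found in 19 of 22 (86.4%), against 34.5% of all promoters, and TTTGAA in 7 of 22 (31.8%), against 16.3%. Both were found in the same 7 promoters (31.8%), against 5.73% of all promoters. A CArG box was found in 0 of the 22. Of protein-coding genes with a promoter, CCAAT was found in 35.1% of those lower, 39.4% of those higher and 37.0% of all compared. TTTGAA was found in 10.4%, 11.2% and 10.7% of these groups, and both in 4.15%, 4.55% and 4.40%. Here too a match is not evidence that a site is used. The letters of CCAAT and of ATTGG can overlap. Capitals mark CCAAT or TTTGAA, or ATTGG or TTCAAA where the match is on the opposite strand. Of the 7 promoters with both, 4 are shown.
Cdc20 (chr4:118437344-118437406, minus strand): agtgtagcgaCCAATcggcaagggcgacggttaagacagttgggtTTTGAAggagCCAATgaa
Mki67 (chr7:135716462-135716577, minus strand): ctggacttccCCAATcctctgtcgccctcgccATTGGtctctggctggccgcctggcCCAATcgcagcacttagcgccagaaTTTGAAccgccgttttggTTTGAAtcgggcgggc
Ccnb2 (chr9:70421561-70421731, minus strand): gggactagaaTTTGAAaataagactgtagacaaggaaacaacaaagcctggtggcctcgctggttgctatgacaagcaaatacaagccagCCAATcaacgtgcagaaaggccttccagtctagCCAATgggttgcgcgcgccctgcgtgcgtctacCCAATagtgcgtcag
Kif11 (chr19:37376327-37376378, plus strand): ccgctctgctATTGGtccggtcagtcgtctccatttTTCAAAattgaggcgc
All 4 genes were lower on day 4, with 2.31 FPKM on day 4 and 20.2 FPKM on day 0 for Cdc20, an activator of the anaphase-promoting complex, 3.05 FPKM on day 4 and 10.6 FPKM on day 0 for the cyclin Ccnb2, and 0.288 FPKM on day 4 and 1.82 FPKM on day 0 for the spindle motor Kif11.

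In the lists of growth factor pathways more genes were lower than higher, beside 21.1% lower and 16.6% higher of all genes. Of 22 TGF-β and BMP pathway genes, 19 passed, 11 were lower and 0 higher, with a median of -1.33. The ligands Tgfb1 (7.39 FPKM on day 4 and 35.8 on day 0) and Inhba, a subunit of activin (0.138 FPKM on day 4 and 5.25 on day 0), were lower, and the receptor Tgfbr2 (9.27 FPKM on day 4 and 12.6 on day 0) and the effector Smad2 (11.1 FPKM on day 4 and 9.16 on day 0) were between the thresholds. Of 29 Wnt pathway genes, 17 passed, 8 were lower and 0 higher, with a median of -0.79. Sfrp1, a secreted Wnt antagonist, had 8.14 FPKM on day 4 and 173 FPKM on day 0 (difference -4.25), and Wisp2, a matricellular protein of the CCN family, had 6.84 FPKM on day 4 and 184 FPKM on day 0 (difference -4.56). The list also held Ctnnb1, beta-catenin, at 57.0 FPKM on day 4 and 91.3 FPKM on day 0. Of 12 genes of the IGF axis, 11 passed, 4 were lower and 1 higher. Igf1 had 23.4 FPKM on day 4 and 19.9 FPKM on day 0, and its receptor Igf1r had 1.36 FPKM on day 4 and 6.62 FPKM on day 0 (difference -1.69).

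Chemokines and cytokines of the stroma fell. Of 23 listed, 16 passed, 14 were lower and 1 higher, with a median of -2.13. Cxcl12, the ligand of CXCR4, had 43.5 FPKM on day 4 and 485 FPKM on day 0 (difference -3.45), and Csf1, the macrophage growth factor, had 32.8 FPKM on day 4 and 285 FPKM on day 0 (difference -3.08). The B cell chemokine Cxcl13 was the member that was higher (11.7 FPKM on day 4 and 0.548 on day 0). Of 18 complement and acute phase genes, 15 passed, 6 were lower and 4 higher. Saa3, a serum amyloid protein, had 61.9 FPKM on day 4 and 1306 FPKM on day 0 (difference -4.38), whereas C3, the central complement component, had 269 FPKM on day 4 and 34.2 FPKM on day 0 (difference 2.94). Lcn2, a siderophore-binding lipocalin, had 65.1 FPKM on day 4 and 6.51 FPKM on day 0 (difference 3.14). Of 25 interferon response and MHC class I genes, 22 passed, 5 were higher and 1 lower, with a median of 0.00 in WAT and -1.31 in BAT, where 1 was higher and 12 lower.

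Most macrophage markers were between the thresholds, as were 8107 of all 13011 genes. Of 16 macrophage markers, 15 passed, 5 were higher and 1 lower, with a summed level of 245 FPKM on day 4 and 119 FPKM on day 0. The members that rose included the C1q chains, as C1qa had 17.5 FPKM on day 4 and 1.77 FPKM on day 0 and C1qb 36.2 FPKM on day 4 and 6.00 FPKM on day 0, and Emr1, the F4/80 antigen (2.35 FPKM on day 4 and 0.213 on day 0). Csf1r, the receptor of macrophage growth factor, had 2.53 FPKM on day 4 and 1.66 FPKM on day 0. Of 10 endothelial markers, all of which passed, 8 were lower, beside 21.1% of all genes, with a summed level of 7.54 FPKM on day 4 and 36.5 FPKM on day 0. Pecam1, or CD31, had 1.13 FPKM on day 4 and 4.12 FPKM on day 0. The levels were low, at most 8.91 FPKM. Several passed the filter only through day 0 and so could not be called higher, such as Kdr (0.0482 FPKM on day 4 and 1.01 on day 0). None of the 10 T and B cell markers reached an FPKM of 1. The part of these cells in the differences above was not tested.

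Of 20 preadipocyte and stromal markers, 18 passed, 10 were lower and 3 higher, with a median of -1.18. Thy1, or CD90, had 24.2 FPKM on day 4 and 299.8 FPKM on day 0 (difference -3.58), and Pdgfrb, a receptor of platelet-derived growth factor, had 11.8 FPKM on day 4 and 125 FPKM on day 0 (difference -3.30). Its relative Pdgfra, widely used to mark fat cell precursors, had 11.4 FPKM on day 4 and 27.6 FPKM on day 0 (difference -1.21). Dlk1, or Pref-1, the classical preadipocyte factor, had 53.0 FPKM on day 4 and 58.6 FPKM on day 0 and was not called. Higher were Nt5e, or CD73 (14.9 FPKM on day 4 and 0.128 on day 0), the proteoglycan Lum (25.5 FPKM on day 4 and 8.22 on day 0) and Zfp423, a preadipocyte commitment factor (3.57 FPKM on day 4 and 1.13 on day 0). The stromal markers were therefore not all lower.

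Markers of brown fat cells were not absent from the white cells. Of 20, 15 passed, 10 were higher and 0 lower, with a median of 3.27. Cidea, a droplet protein of brown fat, had 34.1 FPKM on day 4 and 2.43 FPKM on day 0 (difference 3.35), and Cox8b, another tissue isoform of a cytochrome c oxidase subunit, had 404 FPKM on day 4 and 13.6 FPKM on day 0 (difference 4.80). The defining gene Ucp1, the uncoupling protein, had 0.477 FPKM on day 4 and 1.49 FPKM on day 0 in WAT, against 9.92 FPKM on day 4 in BAT, where it was listed at 0 on day 0. The coactivator Ppargc1a had 2.87 FPKM on day 4 and 1.36 FPKM on day 0, and the brown determination factor Prdm16 had 0.626 FPKM on day 4 and 0.410 FPKM on day 0, below the filter. Of 14 markers of white fat cells, 12 passed, 2 were higher and 3 lower. Hoxc10, a posterior Hox gene that marks the inguinal depot, had 20.6 FPKM on day 4 and 14.9 FPKM on day 0, and in BAT 0.0879 FPKM on day 4 and 0 FPKM on day 0. Its neighbour Hoxc9 had 4.65 FPKM on day 4 and 10.4 FPKM on day 0 (difference -1.02). Of 39 Hox genes, 23 passed, 2 were higher and 3 lower, with a median of -0.32, and with median-ratio or TPM scaling 1 was lower. Over all genes 16.6% were higher and 21.1% lower. The largest difference was that of Hoxb9 (0.348 FPKM on day 4 and 7.06 on day 0, difference -2.58). Hoxa9 (13 FPKM on day 4 and 3.72 on day 0) and Hoxa4 (4.08 FPKM on day 4 and 0.925 on day 0) were higher.

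Ribosomal protein genes were lower as a class. Of 85 genes, 83 passed, 55 were lower and 0 higher, with a median of -1.13. Rpl21 had 479.8 FPKM on day 4 and 2375 FPKM on day 0 (difference -2.31) and Rps20 1057 FPKM on day 4 and 4503 FPKM on day 0 (difference -2.09). With median-ratio scaling of the libraries 35 of the 83 were lower. In BAT 1 was lower and 4 were higher, with a median of -0.15, and for all 83 genes the difference in BAT was above that in WAT. The 2 cell types were not tested against each other. Ribosomal protein genes have many near-identical processed pseudogenes with which reads can be shared, so the level of a single gene is uncertain. Of 23 translation factors, 7 were lower and 1 higher, with a median of -0.51. Eef1g, a subunit of elongation factor 1, had 284 FPKM on day 4 and 1397 FPKM on day 0 (difference -2.29), and Eif4ebp1, an inhibitor of cap-dependent translation, had 489 FPKM on day 4 and 204 FPKM on day 0 (difference 1.26).

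Protein quality control was mixed. Of 21 genes of endoplasmic reticulum chaperones and the unfolded protein response, 7 were lower and 2 higher. Calr, calreticulin, had 203 FPKM on day 4 and 532 FPKM on day 0 (difference -1.38), whereas the transcription factor Xbp1 had 138 FPKM on day 4 and 52.3 FPKM on day 0 (difference 1.38). Of 14 heat shock genes, 6 were lower and 0 higher, and 3 were lower with median-ratio scaling. Of 26 proteasome genes, 1 was higher and 0 lower, with a median of 0.02, and that gene was Psma1 (602 FPKM on day 4 and 82.2 on day 0). Of 23 lysosome genes, 9 were lower and 2 higher. Ctsk, cathepsin K, had 37.2 FPKM on day 4 and 441 FPKM on day 0 (difference -3.53). Of 18 retinoid genes, 16 passed, 4 were higher and 5 lower. The cellular retinoid carrier Crabp1 (0.152 FPKM on day 4 and 24.1 on day 0) was lower, opposite to the secreted Rbp4. Of 4 metallothioneins, 2 passed and both were higher, with 3405 FPKM on day 4 and 1588 FPKM on day 0 for Mt1 and 3459 FPKM on day 4 and 1395 FPKM on day 0 for Mt2. Of 19 clock genes, 18 passed, 3 were higher and 0 lower, beside 16.6% of all genes higher and 21.1% lower. With median-ratio scaling 7 of the 18 were higher.

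In BAT, 2458 of 13517 genes (18.2%) were at least 2-fold higher and 3337 (24.7%) at least 2-fold lower on day 4 than on day 0. The median of the BAT difference over the 13011 genes of the WAT comparison was -0.13, as in WAT. For complex I the median was 1.68 in WAT and 3.17 in BAT, and the BAT difference was the larger in 36 of 37 genes. The matrix glycoproteins had a median of -2.29 in WAT and -3.36 in BAT, the actin list -3.10 in WAT and -2.64 in BAT, and fatty acid synthesis 3.01 in WAT and 1.84 in BAT. With 1 library per condition these differences between the cell types could not be tested. Gene length entered differently: with transcripts split by length into 5 groups of like size, from the shortest to the longest, the median difference ran from -0.07 to -0.16 in WAT and from 0.43 to -0.78 in BAT. Its part in the values above was not tested.

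The genes that fell most by day 4 were mostly higher again on day 6, and most of those that rose most were not above their day 4 level. Of the 15 largest falls, 14 had a higher FPKM on day 6 than on day 4, 12 of them by at least 2-fold. Of all 13011 genes compared, 69.7% had a higher FPKM on day 6 than on day 4, 4.09% were higher by at least 2-fold and 2.41% lower by at least 2-fold. Ctgf was at 292 FPKM on day 0, 1.71 FPKM on day 4 and 10.3 FPKM on day 6, and Ccl7 at 291, 4.95 and 58.9 FPKM on these days. In the actin list 15 of 24 genes were at least 2-fold above day 4 on day 6, and Actb was at 2149.5 FPKM on day 0, 334 FPKM on day 4 and 1021 FPKM on day 6. Mitosis genes did not share this, as 0 of 25 were at least 2-fold above day 4 on day 6. Of the 15 largest rises, 3 were above their day 4 level on day 6, none by 2-fold, and 3 were below it by at least 2-fold. Of the interferon response genes, 9 of 22 were at least 2-fold above day 4 on day 6, where Ifit1 was at 2.03 FPKM on day 0, 2.30 FPKM on day 4 and 15.3 FPKM on day 6. Of the 21 endoplasmic reticulum genes 10 were, and Hspa5, the chaperone BiP, was at 522 FPKM on day 0, 283 FPKM on day 4 and 1007 FPKM on day 6. The day 4 library enters both the fall and the later rise, and the part that this library alone has in them was not tested.

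**Figure D5:**
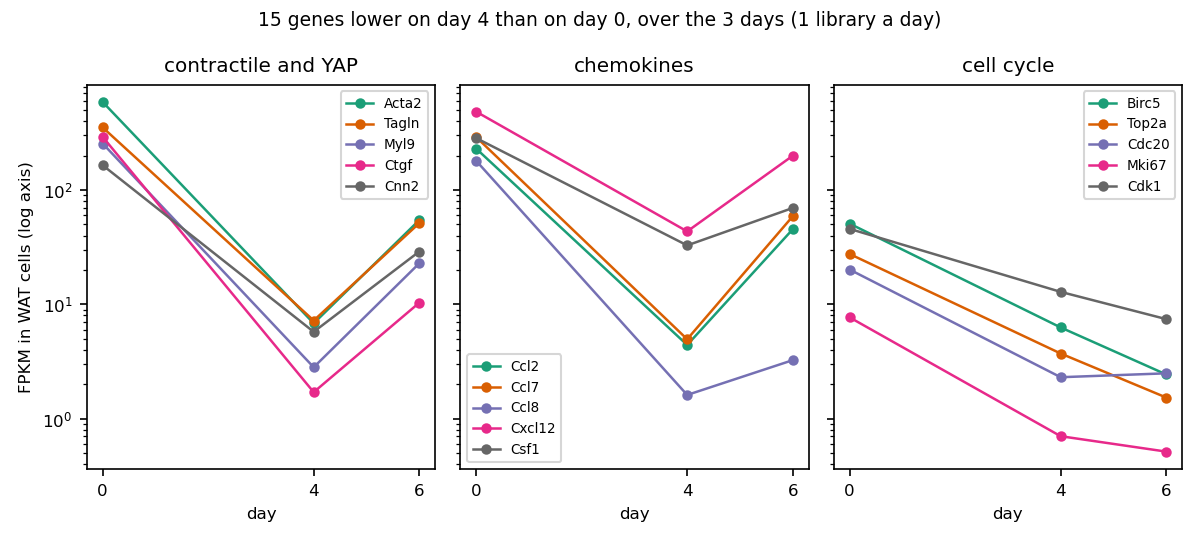
FPKM on a log axis (vertical) of 15 genes in the WAT libraries of days 0, 4 and 6 (horizontal), with 1 point per library and panels for contractile genes and YAP targets, chemokines and cell cycle genes. The genes were chosen after their values were seen; Ctgf runs through 292, 1.71 and 10.3 FPKM on days 0, 4 and 6, and Top2a, a topoisomerase of dividing cells, through 27.6, 3.72 and 1.53 FPKM.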

How the data were processed

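RNA from WAT and BAT cells on days 0, 4 and 6 was sequenced by the authors as 100 bp paired-end reads from a directional library kit, aligned to mm9 with TopHat2 2.0.11 and quantified with Cufflinks 2.1.1, per the methods and the submitters' processing notes. The deposited values are FPKM per gene as the authors computed them, with 1 library per condition, 6 in all, and no further normalization stated.

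Of 37841 entries, the entry with the highest mean FPKM over the 2 WAT libraries was kept for each of 34465 symbols, and 3376 entries were left out. Gene types and lengths came from GENCODE M1, in which 782 gene IDs were not found. Genes with an FPKM of at least 1 on day 4 or day 0 were compared as log2(FPKM + 1), and a difference of at least 1 was called. The members and the 70 gene lists were chosen with earlier results of these data known. The genes named are the 15 largest rises and falls among protein-coding genes above 0 in both libraries that reached 10 FPKM on day 4 or day 0, the 10 highest genes of each day, list members, the markers and Hox genes of the study, and up to 5 genes per class listed at 0 in 1 library. Most list members are counted without being named, and a few are not reported here. FPKM hold no counts, so depth was estimated from low FPKM of single-transcript protein-coding genes (length less 200 bases), taking a value as whole when it fell no more than 0.1 fragments from an integer, as 77.7% to 83.2% of them did. Fragment numbers and intervals are therefore approximate. Promoter sequences are from RefSeq (GRCm38.p6), and no coordinates were converted.

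The 2-fold rule was tested on simulated data that held counting noise alone, with no variation between cultures. Alternatives were other pseudocounts, filters, scalings and fold rules, summed entries, protein-coding genes alone, genes above 0 in both libraries, and removal of a trend with transcript length. Figures were drawn with matplotlib 3.10.9. Computations ran in Python 3.11.15 with pandas 2.3.3 and numpy 2.4.6, intervals used scipy 1.17.1, and the length trend used statsmodels 0.14.6.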

Additional observations from a re-analysis of the deposited data

Results flagged for a closer look

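Of the 1115 list members that passed the filter, 2 were at least 2-fold higher on day 4 in WAT and at least 2-fold lower on day 4 in BAT. This share was near that of all protein-coding genes compared, 26 of 11726. Lum, the proteoglycan lumican, had 25.5 FPKM on day 4 and 8.22 FPKM on day 0 in WAT, a difference of 1.52, and 4.43 FPKM on day 4 and 14.1 FPKM on day 0 in BAT, a difference of -1.48. Nid2, the basement membrane protein nidogen-2, had 9.07 FPKM on day 4 and 2.90 FPKM on day 0 in WAT, a difference of 1.37, and 5.10 FPKM on day 4 and 48.4 FPKM on day 0 in BAT, a difference of -3.02. With 1 library per condition, the difference between the cell types was not tested for either gene.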

How the results depend on the processing

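With a pseudocount of 5 in place of 1, 1264 genes were at least 2-fold higher and 1436 lower on day 4, against 2165 and 2739 with 1. A 1.5-fold rule gave 3340 higher and 4348 lower, and a 4-fold rule 775 higher and 720 lower. The other alternatives stayed within 1.5 times the main counts, and the share of called genes that were higher ranged from 42.1% to 51.8%. Median-ratio scaling gave 2401 higher and 2294 lower, and TPM scaling 2345 higher and 2410 lower. Which direction held more genes thus depended on the scaling and on the fold rule. Median-ratio scaling took the median of all genes to 0.0012, a shift of 0.13. Of 41 lists with a median of at least 1 in size, all 449 alternative values had the same sign and 431 were still at least 1 in size. No list median under any alternative was counted as reversed, although 6 lists with medians under 1 changed sign under some alternative. No filter could not change the calls, since a gene under 1 FPKM on both days cannot differ 2-fold on this scale. No paired analysis was possible because there was 1 library per condition. Depth on day 0, about 9.3 M fragments, limits the ratios of genes that were low there.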

Other observations

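Among the genes compared, 62 entries were listed at 0 on day 4 with at least 10 FPKM on day 0, of which 58 were small RNA loci and 2 were protein-coding: Acly, and Stard7, a phosphatidylcholine transfer protein of mitochondria, at 0 FPKM on day 4 and 14.7 FPKM on day 0. Stard7 was at 54.8 FPKM on day 6. In the other direction, 64 entries were listed at 0 on day 0 with at least 10 FPKM on day 4, of which 53 were small RNA loci and 7 were protein-coding. Among the protein-coding genes were Orm1, the acute phase protein orosomucoid, at 38.0 FPKM on day 4, and Apoc3, an apolipoprotein, at 32.6 FPKM on day 4.

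Of 27 antioxidant and glutathione genes, 5 were higher and 5 lower on day 4, near the shares of all genes called (16.6% higher and 21.1% lower). Prdx3, the mitochondrial peroxiredoxin, had 345 FPKM on day 4 and 28.8 FPKM on day 0 (difference 3.54), and Prdx4, the peroxiredoxin of the endoplasmic reticulum, had 66.2 FPKM on day 4 and 211 FPKM on day 0 (difference -1.66). Of 18 imprinted growth genes, 15 passed, 5 were lower and 0 higher, and with median-ratio scaling 3 were lower. The long noncoding RNA H19 had 141 FPKM on day 4 and 299 FPKM on day 0, and the growth factor Igf2 had 1.23 FPKM on day 4 and 9.90 FPKM on day 0. Of 13 genes of serine and one-carbon metabolism, 1 was higher and 2 lower. Of 8 Schwann cell markers, 5 passed and 2 were lower, with Ngfr, the p75 neurotrophin receptor, at 3.91 FPKM on day 4 and 18.2 FPKM on day 0.

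Directions at least 2-fold apart between the cell types were found for 59 of the 11726 protein-coding genes compared. Of these, 26 were higher in WAT and lower in BAT, and 33 were lower in WAT and higher in BAT. Most of the 33 were loci with Gm names that moved alike, so the 33 are not separate observations. Gm10718, for instance, had 410 FPKM on day 4 and 1380 FPKM on day 0 in WAT. In BAT it had 614 FPKM on day 4 and 0.0410 FPKM on day 0. The 33 also held Stard7, which was listed at 0 on day 4 in WAT. Among those lower in WAT was Gm10800, at 4108 FPKM on day 4 and 14499 FPKM on day 0 in WAT, and at 5889 FPKM on day 4 and 1.97 FPKM on day 0 in BAT. On day 6 in WAT it was at 342 FPKM.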
